A study of Mus musculus with 10 samples.

Results

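The circadian clock genes described here are Arntl, Npas2, Clock, Per1, Per2, Per3, Nr1d1, Nr1d2, Dbp and Ciart. They were taken by symbol from a table of bulk RNA-seq that lists 55291 genes in 10 mouse livers. All 10 genes were present, and all 10 were among the 17015 genes that passed a filter on low counts. The livers came from female Cas9 Lox-Stop-Lox mice, 16 to 20 weeks old when the virus was given. Every mouse, controls included, received AAV8-U6-sgRNA-TBG-Cre by tail vein, in which the TBG promoter restricts Cre, and so Cas9, mainly to hepatocytes. The guide RNA was either a non-targeting control (NTC) or directed at Bap1 (sgBap1), which encodes a deubiquitinase. After 10 days the mice were injected intraperitoneally with CCl4 (carbon tetrachloride, which injures hepatocytes around the central vein), diluted 1:9 in olive oil and given at 10 µL per g of body weight, or with olive oil alone (Veh), and the right lobe was taken 48 hours later. The vehicle groups (NTC-Veh and sgBap1-Veh) had 2 livers each, and the injured groups (NTC-CCl4 and sgBap1-CCl4) had 3 each. The clock time of the injections and of tissue collection, and the lighting schedule, are not given in the sources used here. A difference in collection time between groups therefore cannot be told apart from a difference due to the guide or to CCl4.

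The mammalian clock is a feedback loop of transcription. BMAL1 (encoded by Arntl) pairs with CLOCK or NPAS2 and activates the Per, Nr1d, Dbp and Ciart genes, often through E-boxes. PER proteins, with the CRY proteins, then inhibit the activators, while REV-ERBα and REV-ERBβ (Nr1d1 and Nr1d2) repress Arntl, Npas2 and Clock through response elements of their own. Over the day in liver, Arntl and Npas2 RNA therefore peak roughly opposite to the RNA of Nr1d1, Dbp, Ciart and the Per genes. DBP is an output factor that activates genes through D-boxes, and Per1 RNA can respond quickly to glucocorticoids and other acute signals.

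The promoters of 4 of these genes are shown because they hold letters that match the E-box, D-box or REV-ERB element. RefSeq entries (GRCm38.p6, 250 bases before to 50 bases after each annotated start, 13 entries) were matched for 9 of the 10 genes, and Per2 was not matched. Each entry was searched on both strands for the E-box CACGTG, the related CACGTT, the D-box TTATGNAA, the core of the REV-ERB element TAGGTCA, and the cyclic AMP response element TGACGTCA with its shorter form TGACG. Of 32851 promoters of that length, 7.15% held the E-box, 4.68% CACGTT, 3.38% the D-box, 2.61% TAGGTCA, 1.79% TGACGTCA and 20.8% TGACG. The sequences run 5′ to 3′ on the gene's strand, with the E-box, D-box or TAGGTCA matches in capitals.
Per1, chr11:69098699-69098998, + strand: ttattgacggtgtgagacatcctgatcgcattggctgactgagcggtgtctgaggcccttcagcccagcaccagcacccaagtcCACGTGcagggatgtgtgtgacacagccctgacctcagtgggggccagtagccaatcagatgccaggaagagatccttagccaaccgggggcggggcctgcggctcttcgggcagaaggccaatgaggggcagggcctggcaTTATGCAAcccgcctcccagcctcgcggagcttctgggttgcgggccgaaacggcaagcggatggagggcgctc
Ciart, chr3:95882179-95882478, - strand: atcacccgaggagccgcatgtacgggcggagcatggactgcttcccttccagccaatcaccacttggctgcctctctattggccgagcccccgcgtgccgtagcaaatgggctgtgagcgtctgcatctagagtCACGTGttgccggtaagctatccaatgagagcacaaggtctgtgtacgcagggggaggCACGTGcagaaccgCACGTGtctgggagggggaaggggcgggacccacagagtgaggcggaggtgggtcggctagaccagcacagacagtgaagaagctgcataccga
Per3, chr4:151044616-151044915, - strand: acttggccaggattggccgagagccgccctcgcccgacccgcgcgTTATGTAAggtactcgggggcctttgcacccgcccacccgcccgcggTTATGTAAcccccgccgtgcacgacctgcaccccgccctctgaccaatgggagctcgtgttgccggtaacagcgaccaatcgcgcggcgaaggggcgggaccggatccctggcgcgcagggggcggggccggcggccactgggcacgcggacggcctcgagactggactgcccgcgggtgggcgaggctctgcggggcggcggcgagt
Arntl, chr7:113207261-113207560, + strand: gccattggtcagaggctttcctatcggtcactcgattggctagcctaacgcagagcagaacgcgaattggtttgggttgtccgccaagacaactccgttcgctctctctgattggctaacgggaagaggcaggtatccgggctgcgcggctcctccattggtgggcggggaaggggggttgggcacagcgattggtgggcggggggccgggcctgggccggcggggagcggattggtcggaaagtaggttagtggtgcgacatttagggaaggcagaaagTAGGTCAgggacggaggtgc
The Per1 window holds 1 E-box at -166 from the start and 1 D-box, TTATGCAA, at -24. The Ciart window holds 3 E-boxes, at -116, -58 and -44, and the Per3 window holds 2 D-boxes, both TTATGTAA, at -205 and -158. In Arntl, TAGGTCA begins 30 bases past the start. Elsewhere, the Nr1d1 window matches CACGTT at -28 on the other strand, and both Per1 entries hold TGACG. The entries of Dbp, Npas2, Nr1d2 and Clock, and the other Arntl entry, held no match to any of the motifs searched. A match is a string of letters in this window and no more.

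The labels were checked on the targeted gene. In CPM (estimated counts per 1e+06 of the normalized library), Bap1 was at 34.8 in both NTC-Veh livers, and the sgBap1-Veh livers had 17.5 and 19.5. With CCl4 it ranged from 29.5 to 31.5 in the NTC livers and from 17.0 to 21.8 in the sgBap1 livers. By edgeR's quasi-likelihood test its adjusted p was 0.0172 with vehicle and 0.0307 with CCl4. The libraries held 33047900 to 52199900 estimated counts, so that 3 counts correspond to 0.0511 to 0.112 CPM. The summed CPM of 6 hepatocyte markers, none of them at 0 in any liver, was 107119 to 150939 with vehicle and 66742 to 85768 with CCl4. Alb carried most of that sum, with a mean of 104551 CPM in NTC-Veh and 61893 in NTC-CCl4. By the same test Alb, Ttr, Apoa1, Serpina1a and Cps1 were called lower with CCl4 in NTC livers, and only Serpina1a and Cps1 in sgBap1 livers. Hnf4a was called in neither genotype. The summed CPM of 6 macrophage and leukocyte markers, also none at 0, ranged from 160 to 220 in the NTC-Veh livers and from 320 to 432 in the sgBap1-Veh livers, and with CCl4 from 650 to 834 in the NTC and from 655 to 857 in the sgBap1 livers. Lyz2 carried most of the latter sum with CCl4 (mean 408 CPM in NTC-CCl4 and 420 in sgBap1-CCl4), whereas the Kupffer cell marker Clec4f was lower with CCl4 in the sgBap1 livers (log2 fold change -1.29, SE 0.24, adjusted p = 0.00169 by the same test). The part of these shifts in the values below was not tested, and in bulk tissue fewer cells of a type and less RNA per cell cannot be told apart. Liver 2 of sgBap1-CCl4 stood apart by adipocyte RNA, with 36.4 CPM of Adipoq, 34.5 of Plin1 and 144 of Cfd against at most 0.0425 of any of these in the other 9 livers. Without it the number of clock genes called was the same in each of the 5 tests.

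In livers given CCl4 the clock genes stood on opposite sides of their vehicle levels. In the NTC livers Arntl and Clock were higher with CCl4, and all 3 Per genes, both Nr1d genes, Dbp and Ciart were lower. In the sgBap1 livers given CCl4, Arntl, Npas2 and Clock were higher and Per2, Per3, Nr1d1, Nr1d2, Dbp and Ciart lower than in those given vehicle, while Per1 was not called. Between the genotypes, Per2 was called with vehicle and Per1 was called with CCl4.

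By edgeR's quasi-likelihood test at an adjusted p under 0.05, 9 of the 10 genes were called in the NTC livers, 2 higher and 7 lower with CCl4. Of all genes tested, 53.8% were called in that comparison, 27.5% higher and 26.3% lower. In the sgBap1 livers 9 were called as well, 3 higher and 6 lower, where 56.7% of all genes were called, 29% higher and 27.7% lower. The majority of the genes tested differed between CCl4 and vehicle livers, and the counts of clock genes are to be read against those shares. The median log2 fold change of the 10 genes was -1.23 in NTC and -1.04 in sgBap1 livers, beside medians over all genes tested of 0.03 and 0.04. The NTC livers did not overlap between treatments for any of the 10 genes, 3 being higher and 7 lower, where 36.7% of all genes were higher and 35% lower without overlap. In the sgBap1 livers 3 were higher and 6 lower without overlap, beside 37.3% and 34.9% of all genes, and Per1 overlapped.

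**Figure D1:**
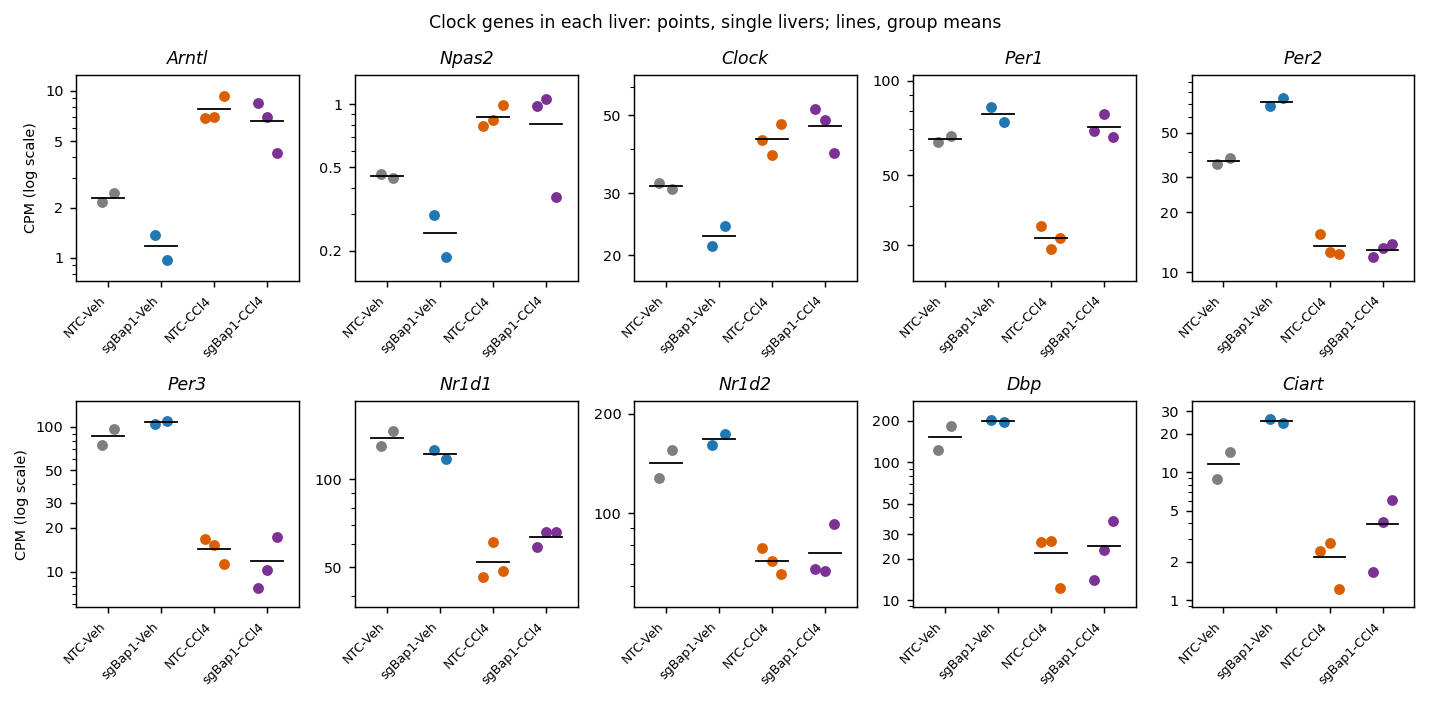
CPM of each clock gene (log scale) in the 4 groups, with 1 point per liver and a line at the group mean. Arntl lies between 0.973 and 2.44 CPM with vehicle and between 4.23 and 9.32 with CCl4, whereas Dbp lies between 123 and 202 with vehicle and between 12.2 and 37.3 with CCl4.

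Arntl, which encodes the activator BMAL1 (ENSMUSG00000055116.8, chr7:113207465-113314126, + strand, GRCm38), had 2.15 and 2.44 CPM in NTC-Veh, 6.86, 7.01 and 9.32 in NTC-CCl4, 1.37 and 0.973 in sgBap1-Veh, and 8.43, 7.0 and 4.23 in sgBap1-CCl4. Every CCl4 liver was above every vehicle liver. The log2 fold change with CCl4 was 1.75 (SE 0.30, adjusted p = 0.000645) in NTC livers, a 3.36-fold difference, and 2.47 (SE 0.32, adjusted p = 0.000106) in sgBap1 livers, a 5.52-fold difference. The difference between these 2 responses was not called, with an interaction of 0.72 and an adjusted p of 0.607 by edgeR's quasi-likelihood test. An annotated antisense gene overlaps an Arntl exon, but it had 0 counts in all 10 livers.

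Clock, the usual partner of BMAL1 (ENSMUSG00000029238.11, chr5:76209868-76304792, - strand), moved less. It had 32.1 and 30.9 CPM in NTC-Veh and 42.6, 38.4 and 47.3 in NTC-CCl4, and 21.2 and 24.2 in sgBap1-Veh against 52, 48.4 and 39.1 in sgBap1-CCl4. Both treatments separated without overlap in each genotype. The log2 fold change was 0.44 (SE 0.13, adjusted p = 0.0158) in NTC livers and 1.04 (SE 0.13, adjusted p = 0.000102) in sgBap1 livers. The call in NTC livers was lost without NTC-Veh 1 (adjusted p = 0.0597), NTC-Veh 2 (adjusted p = 0.0893) or NTC-CCl4 3 (adjusted p = 0.0532) in the same edgeR test.

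Npas2, the paralog of Clock (ENSMUSG00000026077.15, chr1:39193731-39363236, + strand), was close to the limit of these libraries, with 5 to 62 estimated counts. It had 0.463 and 0.443 CPM in NTC-Veh, 0.789, 0.845 and 0.989 in NTC-CCl4, 0.296 and 0.187 in sgBap1-Veh, and 0.988, 1.06 and 0.361 in sgBap1-CCl4. The third sgBap1-CCl4 liver stayed below both NTC-Veh livers, while the other CCl4 livers were above all vehicle livers. The log2 fold change was 0.94 (SE 0.45, adjusted p = 0.104) in NTC livers and 1.70 (SE 0.50, adjusted p = 0.0140) in sgBap1 livers. Both calls turned on single livers in that edgeR test, since NTC reached an adjusted p of 0.0283 without sgBap1-CCl4 3 and sgBap1 went to 0.0942 without sgBap1-Veh 2.

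Per3 fell furthest among the Per genes, which encode the PER repressors. Per3 (ENSMUSG00000028957.12, chr4:151003652-151044665, - strand) had 75.4 and 97.0 CPM in NTC-Veh and 16.7, 15.2 and 11.3 in NTC-CCl4, and 105 and 111 in sgBap1-Veh against 7.73, 10.3 and 17.4 in sgBap1-CCl4. Its log2 fold change with CCl4 was -2.58 (SE 0.30, adjusted p = 0.000146) in NTC livers, 5.98-fold lower, and -3.20 (SE 0.31, adjusted p = 4.38e-05) in sgBap1 livers, 9.16-fold lower. No CCl4 liver came near a vehicle liver.

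Per2 (ENSMUSG00000055866.9, chr1:91415982-91459324, - strand) had 34.9 and 37.2 CPM in the NTC-Veh livers, 67.8 and 74.4 in sgBap1-Veh, 15.5, 12.7 and 12.4 in NTC-CCl4, and 11.9, 13.2 and 13.9 in sgBap1-CCl4. The vehicle groups stood well apart, and the CCl4 groups lay within the same narrow range. With CCl4 Per2 was lower in the NTC livers (log2 fold change -1.41, SE 0.11, adjusted p = 5.26e-06) and in the sgBap1 livers (log2 fold change -2.45, SE 0.11, adjusted p = 3.48e-07). By p-value, Per2 ranked 28 of the 17015 genes in the latter comparison.

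Per1 (ENSMUSG00000020893.17, chr11:69095217-69109960, + strand) fell with CCl4 in the NTC livers and was not called in the sgBap1 livers. It had 63.8 and 66.9 CPM in NTC-Veh and 34.4, 29.2 and 31.5 in NTC-CCl4 (log2 fold change -1.04, SE 0.10, adjusted p = 1.68e-05). In the sgBap1 livers it had 82.7 and 74.0 CPM with vehicle and 69.0, 78.3 and 66.1 with CCl4, so that the treatments overlapped. The log2 fold change there was -0.14 (SE 0.10, adjusted p = 0.266), and it was 0.35 (adjusted p = 0.0457) when libraries were scaled by their size alone. That scaling placed the median of all genes at 0.52, so that Per1 lay below the median under either scaling. It also gave 78.5% of the calls in sgBap1 livers as higher with CCl4, against 51.2% with TMM normalization, and 80.7% against 51.1% in NTC livers, where its median was 0.50.

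Nr1d1 and Nr1d2, which encode the REV-ERB repressors, were both lower with CCl4 in each genotype. Nr1d1 (ENSMUSG00000020889.11, chr11:98767932-98775333, - strand) had 130 and 146 CPM in NTC-Veh, 46.3, 61.3 and 48.5 in NTC-CCl4, 127 and 118 in sgBap1-Veh, and 58.7, 65.9 and 66.0 in sgBap1-CCl4. Its log2 fold change was -1.41 (SE 0.12, adjusted p = 8.92e-06) in NTC and -0.94 (SE 0.12, adjusted p = 0.000105) in sgBap1 livers. Its exons overlap those of Thra on the opposite strand, which had 5.23 to 12.6 CPM and was not called in any comparison. Nr1d2 (ENSMUSG00000021775.11, chr14:18204054-18239127, - strand) had 128 and 156 CPM in NTC-Veh against 78.2, 71.8 and 65.3 in NTC-CCl4, and 161 and 174 in sgBap1-Veh against 68.0, 66.9 and 92.7 in sgBap1-CCl4. The log2 fold changes were -0.98 (SE 0.15, adjusted p = 0.000337) and -1.14 (SE 0.15, adjusted p = 0.000114). Of the stretches of 50 bases in its transcripts, 5.13% also occur in another annotated gene, so its counts carry that uncertainty.

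Dbp, the output factor that binds D-boxes, fell most of the 10 genes in NTC livers by the fitted fold change. Dbp (ENSMUSG00000059824.12, chr7:45705088-45710203, + strand) had 123 and 182 CPM in NTC-Veh and 26.3, 26.8 and 12.2 in NTC-CCl4, 6.98-fold lower (log2 fold change -2.80, SE 0.45, adjusted p = 0.00111). In sgBap1 livers it had 202 and 197 CPM with vehicle and 14.0, 23.2 and 37.3 with CCl4, 8.06-fold lower (log2 fold change -3.01, SE 0.45, adjusted p = 0.000724). The CCl4 livers differed among themselves by more than the vehicle livers in proportion, but none reached a vehicle liver. Dbp exons overlap those of Sphk2 on the other strand, which had 36.0 to 54.6 CPM with vehicle and 23.1 to 27.9 with CCl4. The level of Sphk2 thus lay within the range of Dbp in the CCl4 livers. Sphk2 was also lower with CCl4, with log2 fold changes of -1.01 (adjusted p = 1.89e-05) in NTC and -0.73 (adjusted p = 0.000151) in sgBap1 livers by the edgeR test. The library kit keeps strand, but the strand setting used in counting is not given in the sources used here, so reads of overlapping genes may not be fully separated.

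Ciart, which encodes a repressor of BMAL1 and CLOCK (ENSMUSG00000038550.10, chr3:95878503-95882251, - strand), had 8.79 and 14.3 CPM in NTC-Veh and 2.43, 2.82 and 1.22 in NTC-CCl4. In sgBap1 livers it had 26.0 and 24.6 CPM with vehicle and 1.65, 4.11 and 6.10 with CCl4. Treatments did not overlap in either genotype, and the log2 fold change was -2.40 (SE 0.51, adjusted p = 0.00424) in NTC and -2.68 (SE 0.49, adjusted p = 0.00185) in sgBap1 livers. A pseudogene, Gm9176, shares 11.9% of its stretches of 50 bases and had at most 11.2 counts in any liver.

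**Figure D2:**
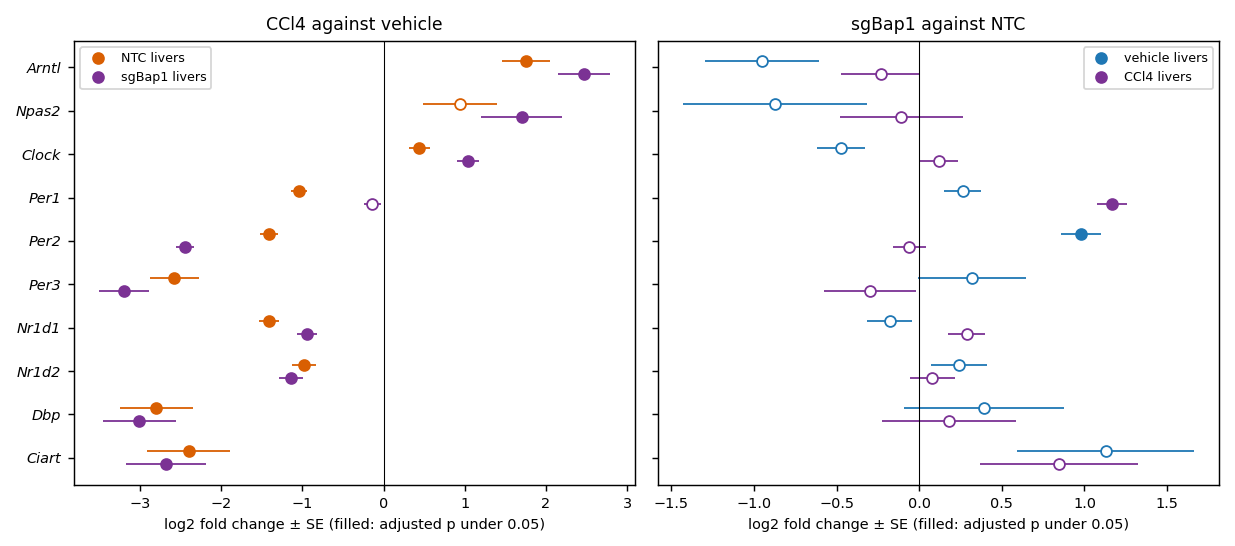
Log2 fold changes of the 10 clock genes with their SE, with CCl4 in each genotype and with sgBap1 in each treatment. Filled symbols have an adjusted p under 0.05 by edgeR's quasi-likelihood test. In the comparison of genotypes the filled symbols are Per2 with vehicle (0.98) and Per1 with CCl4 (1.17).

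Compared per kilobase of exon, the order of RNA levels differed between treatments. In NTC-Veh, Dbp (50.9 ± 14.0 CPM per kb, SD, n = 2) and Nr1d1 (44.95 ± 3.65) led, with overlapping livers. They were followed by Nr1d2 (26.2 ± 3.68), Per1 (11.6 ± 0.386), Per3 (8.97 ± 1.59), Per2 (6.16 ± 0.276) and Ciart (5.11 ± 1.73), of which only Per2 and Ciart overlapped. Clock (2.30 ± 0.0633), Arntl (0.305 ± 0.0270) and Npas2 (0.0946 ± 0.00287) were lowest and separate. In NTC-CCl4, Nr1d1 led with 16.9 ± 2.63 CPM per kb (SD, n = 3), and Dbp, with 7.28 ± 2.77, came after Nr1d2, with 13.3 ± 1.19. Dbp overlapped there with the next gene, Per1 (5.63 ± 0.469), and Clock (3.12 ± 0.325) stood above Per2 (2.32 ± 0.293) without overlap. Per3 (1.498 ± 0.286) overlapped with Arntl (1.03 ± 0.183), as Arntl did with Ciart (0.954 ± 0.368), and Npas2 stayed lowest at 0.183 ± 0.0215.

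The same order was read in the sgBap1 livers. In sgBap1-Veh, Dbp (66.7 ± 1.08 CPM per kb, SD, n = 2) stood alone above Nr1d1 (39.7 ± 2.02) and Nr1d2 (31.0 ± 1.62), and Per1 (13.9 ± 1.09), Per2 (12.1 ± 0.787), Per3 (11.2 ± 0.443) and Ciart (11.2 ± 0.444) came close together, with only Per3 and Ciart overlapping. Clock (1.65 ± 0.153), Arntl (0.156 ± 0.0375) and Npas2 (0.0504 ± 0.0161) were again lowest. In sgBap1-CCl4, Per1 (12.6 ± 1.13, SD, n = 3) stood above Dbp, overlapping with Nr1d2 (14.0 ± 2.697) above it and with Dbp (8.29 ± 3.92) itself, and Nr1d1 (20.7 ± 1.36) led. Clock (3.39 ± 0.484) followed Dbp without overlap. Per2 (2.23 ± 0.177), Ciart (1.75 ± 0.986), Per3 (1.23 ± 0.520) and Arntl (0.871 ± 0.284) overlapped with their neighbours, and Npas2 was lowest at 0.168 ± 0.0803.

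The sgBap1 and NTC livers given vehicle were compared to ask what the Bap1 guide does without injury. Per2 was called, at 71.1 ± 4.61 CPM in sgBap1-Veh against 36.0 ± 1.62 in NTC-Veh (SD, n = 2 each), a 1.97-fold difference (log2 fold change 0.98, SE 0.12, adjusted p = 0.0172). It was the only one of the 10 genes called, where 89 of the 17015 genes (0.523%) were called and 0.364% were called higher. That count of 89 rested on single livers, running from 0 to 150 as each was left out. Per2 ranked 9 by p-value. The call was lost without any single vehicle liver in edgeR's quasi-likelihood test, with an adjusted p of 0.0609 without NTC-Veh 1, 0.0968 without NTC-Veh 2, 0.0796 without sgBap1-Veh 1 and 0.0706 without sgBap1-Veh 2, and the log2 fold change stayed between 0.91 and 1.04. Each of these fits leaves 1 liver in a group, which is taken to vary like the livers of the other groups.

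The other clock genes in vehicle livers did not pass the adjusted threshold, though the vehicle groups overlapped for none of the 10. The sgBap1-Veh livers were higher for Per1, Per2, Per3, Nr1d2, Dbp and Ciart and lower for Arntl, Npas2, Clock and Nr1d1. Over all genes, 21.7% were higher and 19.2% lower without overlap, as groups of 2 livers often separate. The log2 fold change was -0.95 (SE 0.35, adjusted p = 0.277) for Arntl, -0.48 (SE 0.14, adjusted p = 0.191) for Clock, 0.26 (SE 0.11, adjusted p = 0.367) for Per1 and 1.13 (SE 0.53, adjusted p = 0.441) for Ciart. Arntl, Clock, Per1 and Per2 had an unadjusted p under 0.05, 4 of 10 genes against 12.6% of all genes. The 10 genes belong to the same loop and were read in the same livers. Such counts, here and below, are therefore not of independent genes. The median log2 fold change of the 10 genes was 0.25, beside 0.02 over all genes.

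Among CCl4 livers the comparison of genotypes asks what the Bap1 guide does during injury. Per1 was 2.24-fold higher in sgBap1-CCl4, at 71.2 ± 6.39 CPM against 31.7 ± 2.64 in NTC-CCl4 (SD, n = 3 each), and its log2 fold change was 1.17 (SE 0.09, adjusted p = 0.00237). The lowest sgBap1-CCl4 liver had 66.1 CPM and the highest NTC-CCl4 liver 34.4. Per1 had the smallest p-value of all 17015 genes tested. It was the only clock gene called, where 43 genes (0.253%) were called and 0.147% were called higher, and this count of 43 ran from 1 to 49 as each liver was left out. The call held in each fit that left out 1 liver, with log2 fold changes of 1.09 to 1.23 and adjusted p-values of 0.0033 to 0.0409 by edgeR's quasi-likelihood test, and without the liver with adipocyte RNA it was 1.09 (adjusted p = 0.00423).

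Per2 showed no such difference with CCl4, at 13.03 ± 1.04 CPM in sgBap1-CCl4 and 13.6 ± 1.72 in NTC-CCl4 (log2 fold change -0.06, SE 0.10, adjusted p = 0.854). The other 8 genes also overlapped between the genotypes, beside 10.1% of all genes higher and 10.2% lower without overlap. For Arntl the log2 fold change was -0.23 (SE 0.24, adjusted p = 0.719), and for Nr1d1 it was 0.29 (SE 0.11, adjusted p = 0.300). Per1 and Nr1d1 had an unadjusted p under 0.05, against 13.4% of all genes. The median over the 10 genes was 0.10, and over all genes it was 0.00.

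Whether the CCl4 and vehicle livers differed to another extent in each genotype was tested by the interaction of guide and treatment. By edgeR's quasi-likelihood test 0 of the 10 clock genes passed the adjusted threshold, as did 0% of all genes. Per1 (interaction 0.90 on the log2 scale, SE 0.14, adjusted p = 0.0662) and Per2 (-1.04, SE 0.16, adjusted p = 0.0662) ranked 20 and 14 by p-value, and they had opposite signs. Clock (0.60, SE 0.18, adjusted p = 0.254) and Nr1d1 (0.47, SE 0.18, adjusted p = 0.379) were the others of the 4 clock genes with an unadjusted p under 0.05, against 10.6% of all genes. DESeq2's Wald test called Per1 (adjusted p = 3.71e-05) and Per2 (adjusted p = 2.38e-05) and no other clock gene, among 424 genes.

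The ratio of Per1 to Per2 within a liver needs no scaling between libraries. The log2 ratio of their estimated counts was 0.87 and 0.85 in NTC-Veh, 0.29 and -0.01 in sgBap1-Veh, 1.15, 1.197 and 1.34 in NTC-CCl4, and 2.54, 2.56 and 2.25 in sgBap1-CCl4. The 4 groups did not overlap, with sgBap1 livers below NTC livers with vehicle and above them with CCl4. Per1 and Per2 are the clock genes called between genotypes above, so their ratio restates those differences and is not separate support for them. The sgBap1 minus NTC difference was -0.72 with vehicle (exact permutation test, two-sided, p = 0.333) and 1.22 with CCl4 (exact permutation test, p = 0.1), each the smallest p that these group sizes allow. Neither design can therefore reach 0.05.

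**Figure D3:**
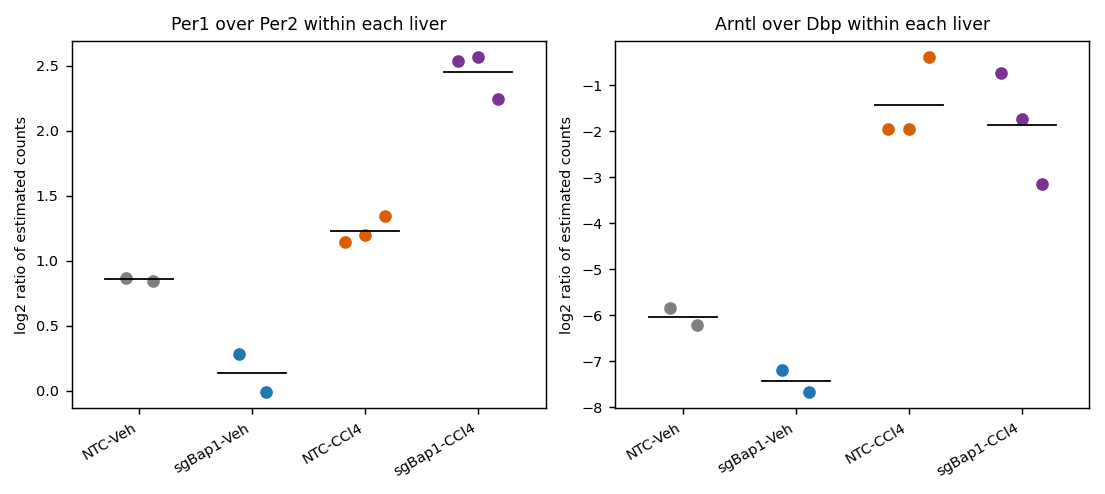
Log2 ratios of estimated counts within each liver, with 1 point per liver and a line at the group mean. For Per1 over Per2 the group means are 0.14 in sgBap1-Veh, 0.86 in NTC-Veh, 1.23 in NTC-CCl4 and 2.45 in sgBap1-CCl4, while for Arntl over Dbp the CCl4 groups overlap and lie above both vehicle groups.

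The ratio of Arntl to Dbp sets a gene that peaks in one phase of the daily cycle against one that peaks in the opposite phase. Its log2 value was -5.83 and -6.22 in NTC-Veh, -7.20 and -7.66 in sgBap1-Veh, -1.94, -1.94 and -0.39 in NTC-CCl4, and -0.73, -1.73 and -3.14 in sgBap1-CCl4. The CCl4 groups overlapped and lay above every vehicle liver. The genotypes differed by -0.44 with CCl4 (exact permutation test, p = 0.7) and by -1.40 with vehicle (exact permutation test, p = 0.333, the smallest possible). The means were -1.87 ± 1.21 in sgBap1-CCl4 and -1.42 ± 0.894 in NTC-CCl4 (SD, n = 3 each), so that livers of 1 group differed by more than the groups did.

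The clock genes differed in how much they varied between livers of 1 group. The SD of log2 CPM pooled over the 4 groups was 0.689 for Ciart, 0.577 for Dbp, 0.394 for Per3 and 0.359 for Arntl, larger than in 98.5%, 97.6%, 93.5% and 91.7% of the 12028 genes that averaged 100 counts or more, whose median was 0.143. It was 0.192 for Nr1d2, 0.161 for Clock and 0.148 for Nr1d1. Per2 (0.130) and Per1 (0.113), the genes called between genotypes, were below the median, and a small spread makes a call easier to reach. Npas2 had an SD of 0.501 at a mean under 100 counts.

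Within the CCl4 groups, the variable genes moved in opposite directions in the same livers. NTC-CCl4 3 had the highest Arntl, Npas2 and Clock of its group and the lowest Dbp, Ciart, Per3 and Nr1d2. In sgBap1-CCl4, liver 3 had the lowest Arntl, Npas2 and Clock and the highest Dbp, Ciart, Per3 and Nr1d2. On the log2 scale, Dbp deviated from its group mean by -0.75 in NTC-CCl4 3, by -0.71 in sgBap1-CCl4 1 and by 0.70 in sgBap1-CCl4 3, and Arntl by 0.28, 0.42 and -0.57 in these livers. Per1 deviated by at most 0.14 and Per2 by at most 0.20 in any liver. The collection times of single livers are not given in the sources used here, and their part in this spread was not tested. The difference between long and short genes described below was also highest of its group in NTC-CCl4 3 (0.19) and lowest of its group in sgBap1-CCl4 3 (-0.085). The genes highest in NTC-CCl4 3 and lowest in sgBap1-CCl4 3 have 7523 (Arntl), 4791 (Npas2) and 13727 (Clock) bases of exon. Those that went the other way have 2993 (Dbp), 2261 (Ciart), 9608 (Per3) and 5409 (Nr1d2). The part of gene length in this spread was not tested either.

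**Figure D4:**
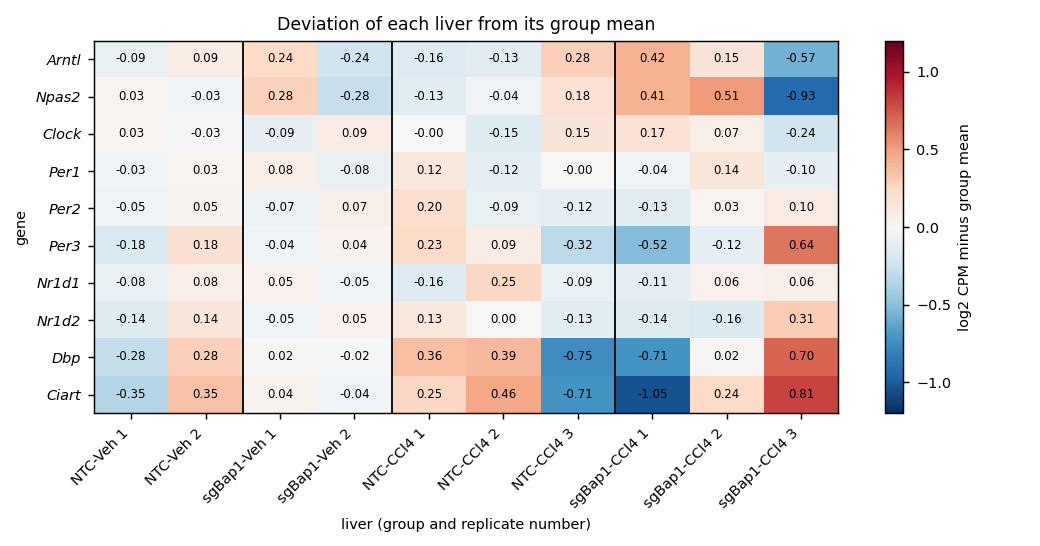
Deviation of each liver's log2 CPM from its group mean for the 10 clock genes (rows) in the 10 livers (columns), with the value written in each cell. In sgBap1-CCl4 3 Dbp is at 0.70 and Arntl at -0.57, and in NTC-CCl4 3 Dbp is at -0.75 and Arntl at 0.28.

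The genes with the pattern most like Dbp and Arntl across the 10 livers were found after each group's mean was subtracted, among 12019 genes. For Dbp these were Commd1b (Pearson r = 0.96), Rbmxl1 (0.95), Mnat1 (0.95), Sucla2 (0.95) and Tef (0.95). Tef, a close relative of Dbp that also binds D-boxes, was the one clock-related gene among them. For Arntl they were Herc1 (0.98), Huwe1 (0.98), Atp7a (0.97), Zfp236 (0.97) and Atxn1l (0.97). These values describe the same 10 libraries, and the largest of 12019 correlations are high by selection. Herc1 and Huwe1 have 27464 and 23507 bases of exon, more than 99.8% and 99.7% of the genes tested with a known length. The median log2 CPM, centred over the livers, of the 1667 longest genes minus that of the 1668 shortest was taken for each liver. This difference ran from -0.30 in sgBap1-Veh 2 to 0.19 in NTC-CCl4 3. It was -0.16 and -0.03 in NTC-Veh, and -0.09 and -0.30 in sgBap1-Veh. With CCl4 it was 0.09, -0.03 and 0.19 in NTC livers and 0.15, 0.09 and -0.085 in sgBap1 livers. In 4 of 4 groups, of which the vehicle groups hold 2 livers each, the liver highest in that difference was the highest in Arntl. No other clock gene did so in more than 2 groups. Clock and Per3 have more exon than Arntl, with 13727 and 9608 bases against 7523. In that liver Clock was highest in 2 groups and lowest in 2, and Per3 was highest in 1 and lowest in 3. The part of gene length in the Arntl values, and in the differences between groups, was not tested.

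Among 27 further genes of the clock and its outputs, 26 could be tested, Rorb having 0 counts in all 10 livers, which allows up to 0.112 CPM. By edgeR's quasi-likelihood test 5 were higher and 15 lower with CCl4 in NTC livers, and 5 higher and 16 lower in sgBap1 livers. Over all genes tested the shares called were 27.5% higher and 26.3% lower in NTC and 29% higher and 27.7% lower in sgBap1 livers. The median log2 fold changes of the list were -0.33 and -0.81, beside 0.03 and 0.04 over all genes. This list holds metabolic genes of hepatocytes as well as clock genes. The hepatocyte marker sums given above, carried mostly by Alb, were lower in every CCl4 liver than in every vehicle liver. Their part in the values of this list was not tested.

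Output factors and repressors of the loop were among those that fell. The PAR bZIP factors related to Dbp fell, with log2 fold changes in NTC and sgBap1 livers of -1.99 and -2.26 for Tef and -1.41 and -2.08 for Hlf. Cry2, which encodes a partner of the PER proteins, fell (-1.25 and -1.06), while Cry1 had 3.84 to 6.81 CPM over all livers and was not called in either genotype. Nfil3, which encodes a repressor at D-boxes, rose by 0.85 (adjusted p = 0.0231) and 1.59 (adjusted p = 0.000971).

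Other genes of this list were called in either direction with CCl4. Usp2, a deubiquitinase gene with strong daily rhythm in liver, fell (log2 fold changes of -2.99 in NTC and -3.29 in sgBap1 livers), and Por, which encodes the electron donor of microsomal cytochromes P450, fell too (-2.12 and -1.74). Noct, Alas1, Nampt, Bhlhe40, Fbxl21 and Btrc were also lower in both genotypes, and Bhlhe41 and Wee1 were called lower in sgBap1 livers. Timeless, Csnk1e, Tspan4 and Leo1 were higher in both, Timeless by 2.10 and 1.88. The summed CPM of 3 genes of dividing cells was at most 9.53 with vehicle and at least 131 with CCl4, and its part in the rise of Timeless was not tested. Cyp7a1, the rate-limiting enzyme of bile acid synthesis, had 155 to 481 CPM with vehicle and 0.377 to 3.89 with CCl4. Elovl3 had 0.646 to 3.87 CPM with vehicle and at most 0.0751 with CCl4, except in sgBap1-CCl4 2, the liver with adipocyte RNA, where it had 2.94.

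Between genotypes 0 of these 26 genes were called with vehicle and 0 with CCl4 by edgeR's quasi-likelihood test, with 8 and 6 at an unadjusted p under 0.05, beside 12.6% and 13.4% of all genes. DESeq2's Wald test called 3 higher in sgBap1-Veh, Bhlhe40 and Bhlhe41 among them, and it called Bhlhe40 lower in sgBap1-CCl4. In the interaction 0 were called by edgeR, with 5 at an unadjusted p under 0.05 beside 10.6% of all genes, and DESeq2's Wald test called 3, Bhlhe40 and Nampt among them.

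A list of 7 genes that answer systemic cues which set peripheral clocks, namely glucocorticoid and temperature, was read beside Per1. With CCl4 in NTC livers Sgk1 and Rbm3 were higher and Tsc22d3, Klf9 and Cirbp lower by edgeR's quasi-likelihood test, and in sgBap1 livers Sgk1 and Rbm3 were higher and Tsc22d3 and Cirbp lower. Over all genes tested, 53.8% were called in NTC and 56.7% in sgBap1 livers. Tsc22d3, a glucocorticoid-induced gene also known as Gilz, fell in both genotypes (log2 fold changes of -1.54 and -1.32), while Sgk1, another such gene, rose by 1.38 and 1.15. The cold-induced RNA-binding protein genes went opposite ways, Cirbp falling (-1.10 and -1.09) and Rbm3 rising (0.94 and 0.78). Between genotypes 0 of the 7 were called with vehicle or with CCl4. An unadjusted p under 0.05 was reached by 1 gene in each, beside 12.6% of all genes with vehicle and 13.4% with CCl4. DESeq2's Wald test called Klf9 lower in sgBap1-Veh and none with CCl4. In the CCl4 livers, where Per1 differed, the gene at an unadjusted p under 0.05 was Tsc22d3 (log2 fold change 0.47, SE 0.15, adjusted p = 0.212). It had 54.9, 59.25 and 46.0 CPM in NTC-CCl4 and 59.29, 77.7 and 84.8 in sgBap1-CCl4, which narrowly did not overlap. Of the other glucocorticoid-responsive genes, Sgk1 (log2 fold change -0.01, SE 0.22, adjusted p = 0.994) and Zbtb16 (0.15, SE 0.28, adjusted p = 0.871) overlapped between the genotypes, and Fkbp5 (0.32, SE 0.23, adjusted p = 0.588) and Klf9 (0.26, SE 0.15, adjusted p = 0.483) did not overlap and were not called. Cirbp (-0.26) and Rbm3 (-0.02) overlapped, like Sgk1 and Zbtb16. Of the 7 genes, 3 were higher and 0 lower without overlap in that comparison, beside 10.1% and 10.2% of all genes.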

How the data were processed

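Poly(A) RNA of 10 livers was sequenced with a stranded kit in paired reads of 50 bases. The authors aligned reads to GRCm38 with STAR 2.7.6a and quantified genes with Salmon 1.4.0 on GENCODE M25. The deposited table holds the estimated counts of Salmon, not normalized, and 9.22% of its values are not whole. The strand setting is not given in the sources used here. Counts were rounded, and edgeR 4.0.16 was run in R 4.3.3. The filter filterByExpr over the 4 groups kept 17015 of 55291 genes, libraries were normalized by TMM, and CPM are relative to the TMM-scaled library. One model of the 4 groups was fitted, and 4 comparisons and the interaction were tested two-sided by the quasi-likelihood method. P-values were adjusted by Benjamini-Hochberg across all genes tested, at a threshold of 0.05. The SE is the size of the log2 fold change divided by the root of F. The code was tested on simulated data with 200 changed genes.

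The clock genes and the other lists were chosen with earlier results of these data known. All 10 clock genes are described, and some genes of the longer lists are not reported here. Genes of the longer lists are named with values where they passed the threshold and had a mean of at least 1 CPM, and Cry1, Elovl3, Fkbp5, Zbtb16 and Rorb were added after their values were seen, as were the differences of genes below the threshold. Likeness is the Pearson r of group-centred log2 CPM, 5 genes each, at a mean of at least 100 counts. The alternatives were DESeq2 size factors, library size alone, no filter beyond 1 count, the replicate number as a block, DESeq2's Wald test (1.42.0), only the groups compared, each liver left out, and, added after seeing the data, a prior count of 2. Promoters come from RefSeq, gene positions from GENCODE vM21. The sources used here do not state outright that each liver came from a separate mouse, so p-values measure the spread between these samples. The 3-count limit covers counting error only.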

Additional observations from a re-analysis of the deposited data

Results flagged for a closer look

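In 3 genes of the longer lists, every sgBap1 liver was shifted one way from the NTC livers with vehicle and the opposite way with CCl4. These are 9.09% of the 33 genes tested from those lists, and 2.68% of all 17015 genes (456) had the same pattern. Bhlhe40, which encodes a repressor of BMAL1 and CLOCK targets, had 159 and 165 CPM in the NTC-Veh and 220 and 214 in the sgBap1-Veh livers, and with CCl4 121, 130 and 126 in NTC against 94.98, 88.9 and 112 in sgBap1 livers. Its interaction was -0.77 on the log2 scale (SE 0.15, adjusted p = 0.0824 by edgeR's quasi-likelihood test). Nampt, which encodes an enzyme of NAD synthesis, had 85.7 and 88.0 CPM in the NTC-Veh and 96.9 and 108 in the sgBap1-Veh livers, and with CCl4 75.5, 70.0 and 72.1 in NTC against 59.0, 56.1 and 64.6 in sgBap1 livers, with an interaction of -0.52 (SE 0.13, adjusted p = 0.142). Klf9, a glucocorticoid-responsive transcription factor gene, went the other way, with 181 and 126 CPM in the NTC-Veh and 91.8 and 103 in the sgBap1-Veh livers, and with CCl4 73.0, 74.2 and 55.2 in NTC against 79.7, 75.3 and 87.9 in sgBap1 livers, and an interaction of 0.92 (SE 0.24, adjusted p = 0.174). None of the 3 passed the adjusted threshold in the edgeR test, and DESeq2's Wald test called all 3. None of the 10 clock genes of the report had this pattern.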

How the results depend on the processing

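Of the log2 fold changes of the 10 clock genes recomputed under the alternatives, 812 kept their direction and side of the threshold, 10 lost and 7 gained a call, and 11 changed sign. The count of clock genes called in the interaction was 0, and it was 2 (Per1 and Per2) with DESeq2's Wald test and 2 with no filter beyond 1 count. With single livers left out, 8 to 10 clock genes were called with CCl4 in NTC livers, 8 to 9 in sgBap1 livers, 0 to 1 between genotypes with vehicle, 1 to 1 with CCl4 and 0 to 0 in the interaction. Under that setting, the log2 fold change of sgBap1 with CCl4 ran from -0.35 to 0.22 for Npas2, -0.12 to 0.050 for Per2, -0.10 to 0.16 for Nr1d2 and -0.24 to 0.47 for Dbp, and the interaction from -0.63 to 0.078 for Dbp and -0.74 to 0.091 for Ciart, none of them called. With library size alone Per1 with CCl4 in sgBap1 livers was 0.35 in place of -0.14. The cause of these changes was not tested. Over all genes, 89 were called between genotypes with vehicle and 43 with CCl4, against 562 and 509 with DESeq2's Wald test, 177 and 113 with no filter, 35 and 29 with only the groups compared, 47 and 37 with library size alone. Without single livers, the calls with vehicle were 49 and 0 (NTC-Veh 1 and 2), 0 and 29 (sgBap1-Veh 1 and 2), 29, 21 and 55 (NTC-CCl4 1 to 3) and 33, 150 and 40 (sgBap1-CCl4 1 to 3). With CCl4 they were 1, 12 and 2 without NTC-CCl4 1 to 3, 2, 22 and 27 without sgBap1-CCl4 1 to 3, and 31 to 49 without a vehicle liver. In the interaction, 0 became 12 without sgBap1-CCl4 2, the liver with adipocyte RNA, and at most 1 without any other.

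With the replicate number as a block, 0 clock genes were called between genotypes with vehicle (Per2 adjusted p = 0.0713 by edgeR's quasi-likelihood test), and 1 and 3 genes of all were called with vehicle and CCl4. Deviations of same-numbered livers from their group means had correlations of -0.149 to 0.102. In the vehicle groups the deviations of the livers mirror each other, so these correlations cannot decide whether same-numbered livers shared a batch. Depth limits Npas2 and Rorb.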
